A study of Mus musculus with 31 samples.

Results

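The proteasome genes described here are the protein-coding mouse genes whose symbol begins with Psma, Psmb, Psmc, Psmd, Psme, Psmf or Psmg followed by a digit. An interferon-inducible subunit gene and the pseudogenes were left out by the rule. Of 49 such genes, 47 had at least 10 reads in 7 or more of the 31 mice and were kept as members, out of 17428 genes tested. They comprised 16 genes of the core particle, 17 of the regulatory particle, 5 coding for other activators and an inhibitor and 7 coding for assembly chaperones. A further 2 were set apart because their symbols go on after the digit. The genes below the read minimum were Psma8, an alpha subunit known from testis, with 0 to 6 reads per mouse, and Psmb9, an interferon-inducible catalytic subunit, with 0 to 15 reads and a median of 5.

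The 26S proteasome degrades proteins that carry ubiquitin chains. Its core particle is a barrel in which rings of alpha subunits (Psma genes) gate the entrance and rings of beta subunits (Psmb genes) hold the cutting sites. The regulatory particle caps the barrel: a ring of ATPases (Psmc genes) unfolds the substrate, and the non-ATPase subunits (Psmd genes) bind the ubiquitin chain and remove it. In neurons, proteasomes are found at synapses, where degradation of synaptic proteins is part of plasticity.

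RNA was taken from the basolateral amygdala (BLA), a region involved in fear memory, with the left and right punches of each mouse pooled. The 16 WT and 15 CYFIP1 OE mice were of C57BL/6N background, and the CYFIP1 OE mice carried a BAC transgene with human CYFIP1. Each line goes back to 1 founder, so a line also carries its own insertion site. The lines are labelled 1 (8 WT and 7 CYFIP1 OE mice) and 3 (8 of each). Age at collection was 58 to 61 days in WT mice and 58 to 77 days in carriers of the transgene. The oldest animals, 4 carriers from line 1 aged 77 days, had no WT counterpart, so that age and genotype cannot be fully told apart in that line. The sample names also fall into name groups. In line 1, 7 of the 8 WT and 6 of the 7 CYFIP1 OE mice came from name groups of a single genotype, so that name group and genotype cannot be told apart there, while the 4 name groups of line 3 each hold both genotypes. Libraries were made with QuantSeq, which reads the 3′ end of transcripts. Total counts per mouse were 5286708 to 8685308. Levels are given as CPM, the reads of a gene scaled to a common library total. The mouse gene Cyfip1 was at 23.4 to 39.6 CPM in WT and at 25.2 to 37.7 CPM in CYFIP1 OE mice, and reads of the human transgene were not analysed here.

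All 6 markers of BLA principal neurons passed the read minimum, but not all were found in every mouse, as Rspo2 had a lowest value of 0 CPM. They summed to 52.9 to 1520 CPM, and 6 markers of striatal projection neurons summed to 184 to 4190 CPM. The medians in WT and CYFIP1 OE mice were 453 and 450 CPM for the BLA markers, against 2070 and 1950 CPM for the striatal ones. The 1520 CPM came from the library described next, and the other mice had at most 1030 CPM. In bulk tissue, fewer cells of a type and less RNA per cell cannot be told apart. In 1 library, from a male CYFIP1 OE mouse of line 3, the standardized connectivity, a Z-score for how well its profile correlates with the others, was -4.74, against -1.18 for the next lowest. It is called the mouse that stands apart below, and results are given with and without it. Its total of 7497498 counts was within the range of the other mice, but its most abundant gene took 19.13% of the counts, against 9.99 to 15.39% in the others, and its TMM factor of 0.747 was the lowest (others 0.814 to 1.142).

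Core particle genes had a median mean level of 71.1 CPM and regulatory particle genes one of 77.1 CPM, against 18.8 CPM for the activators and inhibitor, 16.4 CPM for the assembly chaperones and 9.32 CPM for all genes tested. QuantSeq counts about 1 fragment per transcript, so CPM were not divided by length. Psmb4, a structural beta subunit, had the highest level of all members with 230 ± 35.9 CPM (SD, n = 31), and Psmb11, the thymus-specific beta subunit, the lowest of the core particle with 4.93 ± 2.13 CPM. In the alpha ring the levels went from Psma2 with 134 ± 23.1 CPM to Psma5 with 23.4 ± 6.24 CPM. These ring neighbours enter the particle in equal numbers, yet their mean CPM spanned 5.72-fold in the alpha ring.

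The constitutive catalytic subunits differed in level. Psmb5, with the chymotrypsin-like site, had 94.5 to 161 CPM (mean 125 ± 15.1, SD, n = 31). Psmb6, with the caspase-like site, had 52.4 to 128 CPM (mean 83.8 ± 14.6, SD, n = 31), and Psmb7, with the trypsin-like site, had 24.5 to 61.4 CPM (mean 40.9 ± 7.66). Psmb10, the interferon-inducible counterpart of Psmb7, had 7.99 to 34.4 CPM (mean 19.5 ± 5.57), and Psmb7 was the higher of this pair in 30 of 31 mice. The interferon-inducible activator genes were at similar levels, with Psme1 at 16.7 ± 5.58 CPM and Psme2, its partner in the PA28 activator ring, at 15.5 ± 5.13 CPM.

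Among the ATPases, Psmc5 was highest with 153 ± 41.6 CPM and Psmc4 lowest with 27.1 ± 5.92 CPM. Among the non-ATPases the levels went from Psmd2, a large scaffold subunit, with 140 ± 18.8 CPM, to Psmd12, a lid subunit, with 37.1 ± 6.38 CPM. Next to each other in this order, Psmd7 and Psmd3 differed by less than 1 SD and Psmd7 was the higher in 15 of 31 mice. Psme3, the nuclear PA28 gamma activator, led the activators with 27.3 ± 4.26 CPM, and Psmd5, which assists base assembly, led the chaperones with 20.6 ± 4.59 CPM. Psmg1, which helps form the alpha ring, was lowest of the chaperones with 5.14 ± 2.57 CPM. The members set apart from every subcomplex, the recombination factor gene Psmc3ip and Psme2b, had means of 5.97 and 1.05 CPM. Psme2b was set apart by its symbol, which goes on after the digit, and not by what it codes for.

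Divided by the length of the longest annotated transcript, the levels kept Psmb4 first with 194 CPM per kb and Psmb11 last of the core particle with 1.16 CPM per kb. The rank correlation between the order in CPM and that in CPM per kb was 0.88 over the 47 genes. The scale mattered for the leading gene of some subcomplexes: per kb Psma7 led the alpha ring with 78.4, Psmd7 the non-ATPases and Psme2 the activators with 16.1 CPM per kb.

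**Figure D1:**
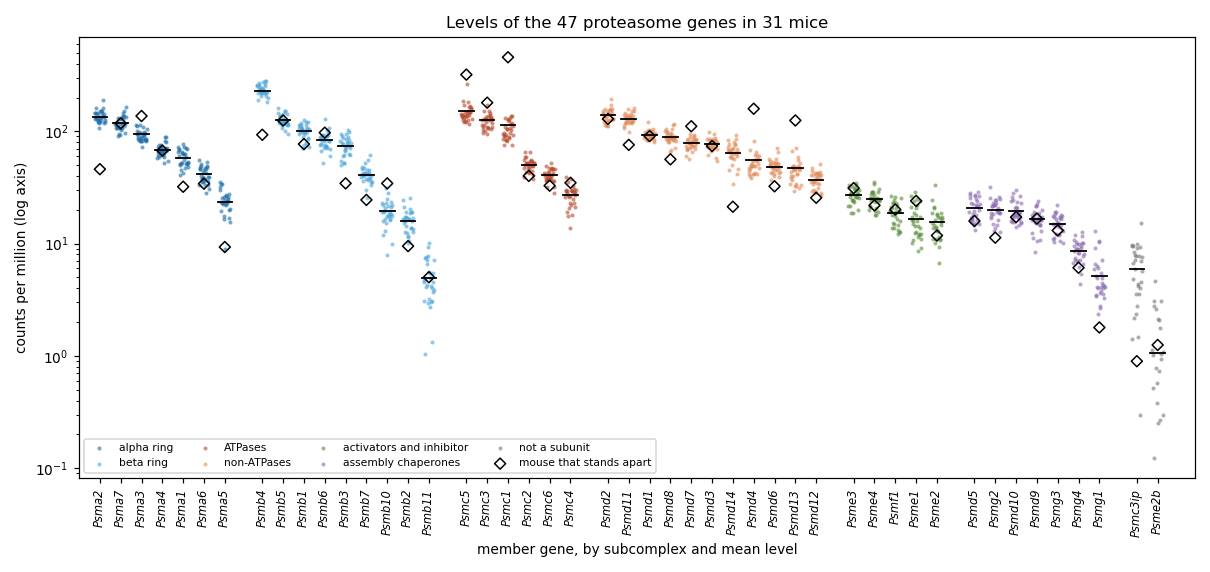
CPM of each member on a log axis, by subcomplex and mean level; points are 30 mice, black lines the mean over 31 mice and open diamonds the mouse that stands apart (zeros of Psme2b are not drawn). Core and regulatory genes lie mostly between 20 and 200 CPM, and the diamonds leave the cloud of the other mice for Psmc1, Psmd4 and Psmd13 upward and for Psma2, Psmb4 and Psmd14 downward.

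The members varied little between mice. The biological coefficient of variation (BCV), which is edgeR's estimate of the spread between mice of one group beyond counting error, was 12.8% for Psmd1, the other large scaffold subunit, the lowest of all members. It had a median of 19.5% over the 42 members with a mean of at least 10 CPM, against 23.2% over the 8449 genes tested at that level. It lay below the trend for genes of like abundance for all 16 core genes, for 13 of the 17 regulatory genes and for 39 of the 47 members (83.0%), against 68.8% of all genes tested. The regulatory genes above the trend were Psmc1 with 31.8%, Psmd13 with 29.1%, Psmd4 with 26.9% and Psmd14 with 26.4%. Without the mouse that stands apart their BCVs were 17.9, 22.3, 17.6 and 21.3%, and all 17 regulatory genes and 43 of the 47 members (91.5%) lay below the trend, against 69.0% of all genes.

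Proteasome genes are known targets of the transcription factors NFE2L1 and NFE2L2, which bind antioxidant response elements, and many housekeeping promoters carry a CCAAT box bound by NF-Y. Promoters of 40 members were found in RefSeq (GRCm38.p6), as windows from 250 bases before to 50 bases after the start. The element core TGACNNNGC, searched on both strands, was present in 6 of the 40 windows (15.0%), those of Psmb5, Psmb6, Psmc6, Psmd9, Psmd12 and Psme4, against 14% of 27025 genes. CCAAT, searched the same way, was present in 14 (35%) against 41.1%. The first share was close to that of all promoters and the second somewhat below it, and a match is a description of letters only. The stretches before the start that hold no annotated exon are printed for the catalytic genes Psmb5 and Psmb6, which carry the first motif, and for Psmd4, Psmc1 and Psmd14, which carry the second and whose levels moved together or oppositely between mice (below). Capitals mark the motif, which reads ATTGG where CCAAT is on the other strand. The regions are, in GRCm38, chr14:54618023-54618245 (minus strand) for Psmb5, chr11:70525107-70525356 (plus) for Psmb6, chr3:95042615-95042864 (minus) for Psmd4, chr12:100109952-100110153 (plus) for Psmc1 and chr2:61711444-61711693 (plus) for Psmd14.
Psmb5: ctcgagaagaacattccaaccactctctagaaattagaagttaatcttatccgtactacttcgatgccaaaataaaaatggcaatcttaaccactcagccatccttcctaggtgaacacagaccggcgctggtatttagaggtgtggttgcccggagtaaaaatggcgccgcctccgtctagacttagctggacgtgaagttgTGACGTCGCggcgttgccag
Psmb6: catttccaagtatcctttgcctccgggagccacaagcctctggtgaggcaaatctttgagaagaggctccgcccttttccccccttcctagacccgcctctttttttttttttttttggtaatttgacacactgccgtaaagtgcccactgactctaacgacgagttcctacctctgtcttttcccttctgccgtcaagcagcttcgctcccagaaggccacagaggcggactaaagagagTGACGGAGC
Psmd4: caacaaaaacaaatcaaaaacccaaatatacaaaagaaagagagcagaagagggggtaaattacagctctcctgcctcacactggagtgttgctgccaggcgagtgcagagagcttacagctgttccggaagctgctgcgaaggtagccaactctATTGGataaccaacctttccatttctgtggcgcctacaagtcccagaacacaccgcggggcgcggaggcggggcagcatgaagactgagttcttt
Psmc1: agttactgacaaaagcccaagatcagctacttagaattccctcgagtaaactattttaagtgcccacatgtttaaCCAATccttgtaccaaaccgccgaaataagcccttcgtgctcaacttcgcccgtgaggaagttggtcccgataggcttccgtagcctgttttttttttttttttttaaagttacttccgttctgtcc
Psmd14: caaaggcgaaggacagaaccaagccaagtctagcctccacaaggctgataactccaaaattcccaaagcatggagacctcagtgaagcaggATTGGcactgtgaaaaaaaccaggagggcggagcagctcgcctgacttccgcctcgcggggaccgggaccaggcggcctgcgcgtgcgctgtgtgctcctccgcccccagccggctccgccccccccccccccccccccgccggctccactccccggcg
The first base of the motif lay 47 bases before the start in Psmb5 and 9 bases before it in Psmb6. The printed stretches of Psmb5 and Psmc1 end short of the RefSeq start, because an exon in the GENCODE annotation reaches into the window. In Psmd4, Psmc1 and Psmd14 it lay 95, 175 and 159 bases before the start.

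The first comparison was between genotypes: whether proteasome genes differed in the BLA of mice that overexpress human CYFIP1. The median log2 difference (CYFIP1 OE minus WT, with sex and line in the model) was -0.01 over the 47 members and -0.01 over all genes tested. By edgeR's quasi-likelihood test 5 members had an unadjusted p under 0.05, against 4.30% of all genes tested, and 0 had an adjusted p under 0.05. DESeq2 gave the same counts of 5 and 0. Of these members 3 were higher in CYFIP1 OE mice, against a background of 2.27% in that direction, and 2 were lower, against 2.04%.

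The higher ones were all regulatory subunits. Psmd4 codes for a ubiquitin receptor of the regulatory particle. Its lowest, median and highest values were 38.6, 46.8 and 67.6 CPM in WT mice and 41.4, 55.2 and 159 CPM in CYFIP1 OE mice. The groups overlapped, but 13 of 15 carriers lay above the WT mean. Its log2 difference was 0.37 (SE 0.14, edgeR p = 0.0113, adjusted p = 0.999), and without the mouse that stands apart, which held the 159 CPM, it was 0.20 (SE 0.09, p = 0.0336).

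Psmc1, an ATPase of the ring, had 74.9, 93.3 and 136 CPM as lowest, median and highest value in WT mice and 84.5, 117 and 457 CPM in CYFIP1 OE mice. Here 12 of 15 carriers exceeded the WT mean, and the next highest after 457 CPM had 137 CPM. The log2 difference was 0.43 (SE 0.16, edgeR p = 0.0140, adjusted p = 0.999) and was 0.20 (SE 0.09, p = 0.0359) without that mouse. Psmc5, a further ATPase, had 120 to 186 CPM in WT mice (median 138) and 117 to 320 CPM in CYFIP1 OE mice (median 148). Its log2 difference of 0.25 (SE 0.11, edgeR p = 0.0367, adjusted p = 0.999) was 0.15 (SE 0.09, p = 0.113) without that mouse, and 10 of 15 CYFIP1 OE mice lay above the WT mean.

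The lower ones were an activator and an alpha subunit. Psme4 codes for PA200, a nuclear activator that binds the core without ATP. It had 19.9 to 35.2 CPM in WT mice (median 25.6) and 18.0 to 30.9 CPM in CYFIP1 OE mice (median 24.2). Although the medians were close, 13 of 15 CYFIP1 OE mice were below the WT mean, with a log2 difference of -0.20 (SE 0.09, edgeR p = 0.0304, adjusted p = 0.999). It was nearly the same without the mouse that stands apart, at -0.19 (SE 0.09, p = 0.0451). With age in the model it was -0.14 (p = 0.163), and the 4 mice aged 77 days are part of the group that is lower.

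Psma5, an alpha subunit, had 16.7 to 35.1 CPM in WT mice (median 24.6) and 8.88 to 27.2 CPM in CYFIP1 OE mice (median 22.7). The 2 lowest values of the study, 8.88 and 9.32 CPM, were CYFIP1 OE mice, the second of them the mouse that stands apart. The log2 difference was -0.31 (SE 0.14, edgeR p = 0.0361, adjusted p = 0.999) and without that mouse -0.25 (SE 0.13, p = 0.0669). Psma5 and Psmc5 were not among the 3 members with the smallest p for genotype. The rule for named genes covers them as the lowest alpha subunit and the highest ATPase by mean level.

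The catalytic subunits gave no difference beyond their error. Psmb5 had a log2 difference of -0.04 (SE 0.07), Psmb6 of 0.04 (SE 0.09), Psmb7 of -0.07 (SE 0.10) and Psmb10 of 0.12 (SE 0.15), with edgeR p between 0.433 and 0.651. The SE of the members had a median of 0.11, so that differences of the size seen for Psmb5 are not detectable at this depth and number of mice.

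By subcomplex, 6 of the 16 core genes and 12 of the 17 regulatory genes were higher in CYFIP1 OE than in WT mice (medians -0.02 and 0.05 in log2). Leaving out the mouse that stands apart gave 8 of 16 core genes and 16 of 17 regulatory genes (medians 0.00 and 0.06), against 49.0% of all genes tested, 73.8% of cytosolic ribosomal protein genes and 69.7% of nuclear oxidative phosphorylation genes. All 11 non-ATPases were then above 0, by 0.01 to 0.20, and only Psmc2 of the regulatory particle was below, at -0.04. These are small values, genes of the same mice are not independent, and the difference between subcomplexes was not tested. Without that mouse 3 members (Psmd4, Psmc1 and Psme4) passed an unadjusted p of 0.05, and so did 3.76% of all genes.

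**Figure D2:**
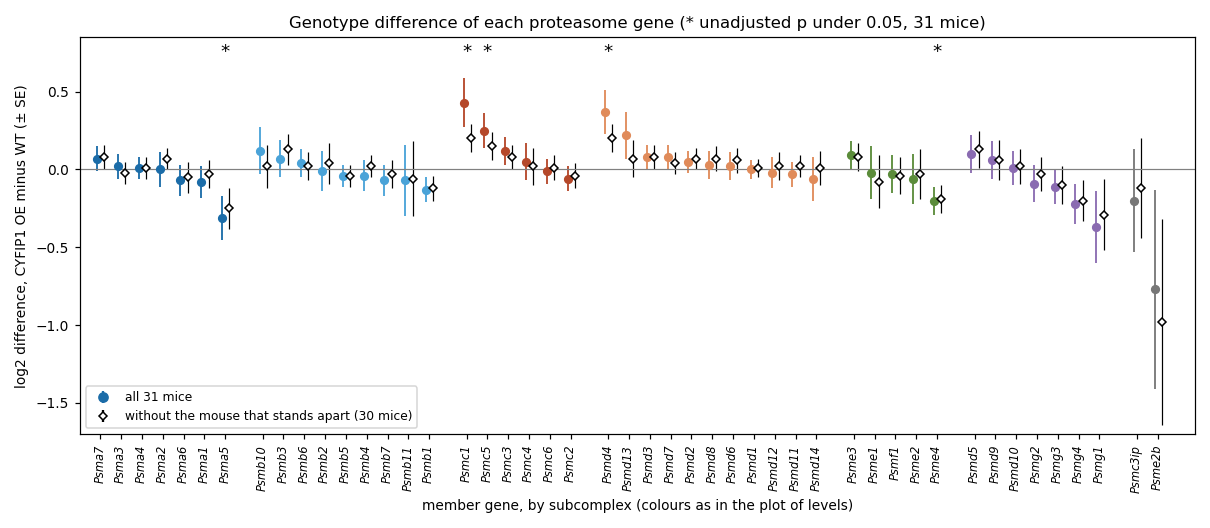
Log2 difference between CYFIP1 OE and WT mice with its SE for each member, coloured by subcomplex, from all 31 mice, and in open diamonds from the 30 mice without the one that stands apart. The members marked with an asterisk are Psma5, Psmc1, Psmc5, Psmd4 and Psme4, and for the regulatory ones among them the diamond lies closer to 0.

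Other genes of the pathway were taken from a list of 34 symbols, of which 30 were tested. For genotype 1 of the 30 had a p under 0.05, with a median log2 difference of 0.00. This was Adrm1, which codes for the ubiquitin receptor RPN13 of the regulatory particle although its symbol does not begin with Psm. It had 32.5 to 136 CPM over all mice (median 47.1) and a log2 difference of 0.35 (SE 0.13, edgeR p = 0.0111, adjusted p = 0.999), or 0.21 (p = 0.0275) without the mouse that stands apart. Sem1, a further small regulatory subunit, had a log2 difference of -0.10 (SE 0.12). Nfe2l1, the transcription factor that restores proteasome gene expression when the proteasome is inhibited, had 80.1 ± 12.1 CPM and a log2 difference of -0.03 (SE 0.09), and Pomp, the maturation chaperone of the core, 169 ± 28.9 CPM and 0.09 (SE 0.09).

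The second comparison was between the lines, which differ in insertion site and in name groups. The median log2 difference (line 3 minus line 1) was 0.00 over the members and 0.01 over all genes. Only Psmd2 passed an unadjusted p of 0.05, as did 3.31% of all genes tested, and by edgeR and by DESeq2 0 members had an adjusted p under 0.05. Psmd2 had 112 to 157 CPM in line 1 (median 130) and 112 to 196 CPM in line 3 (median 145), and 11 of the 16 mice of line 3 were above the line 1 mean. Its log2 difference was 0.15 (SE 0.07, edgeR p = 0.0491, adjusted p = 1.00). In WT mice alone, which carry no transgene, it was 0.11 (p = 0.278).

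Psmc2, an ATPase, had 42.8 to 65.8 CPM in line 1 (median 51.7) and 37.3 to 55.1 CPM in line 3 (median 49.3). Its log2 difference of -0.15 (SE 0.08, edgeR p = 0.0625) was not past the threshold. For Psmc1 the value was 0.29 (SE 0.17, p = 0.0898), but 0.09 (SE 0.09, p = 0.299) without the mouse that stands apart and -0.02 in WT mice alone.

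The third comparison was between the sexes. The log2 difference (male minus female) was below 0 for 33 of the 47 members, with a median of -0.05, while the median over all genes tested was 0.02 and 53.4% of them were above 0. It was below 0 for 13 of 16 core and 12 of 17 regulatory genes, and without the mouse that stands apart for 11 and 16, with 50.8% of all genes above 0. The same lean was stronger in other abundant gene sets, with 73 of 80 cytosolic ribosomal protein genes and 83 of 89 nuclear oxidative phosphorylation genes below 0 in all mice. Psmb1, a structural beta subunit, was the only member to pass an unadjusted p of 0.05, as did 4.62% of all genes tested, and 0 members were among the genes with an adjusted p under 0.05, which made up 0.0631% of all (DESeq2 gave 1 and 0). It had 94.8 to 127 CPM in females (median 105) and 70.6 to 118 CPM in males (median 89.3), with 11 of 15 males below the female mean. Its log2 difference was -0.21 (SE 0.08, edgeR p = 0.00832, adjusted p = 0.970).

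The next by p were Psmc6, an ATPase, and Psmd6, a lid subunit. Psmc6 had 32.1 to 51.7 CPM in females and 28.3 to 48.7 CPM in males (log2 difference -0.16, SE 0.08, edgeR p = 0.0570). Psmd6 had 43.4 to 70.5 CPM in females and 32.4 to 56.8 CPM in males (log2 difference -0.14, SE 0.09, p = 0.122). The ranges overlapped in both. Of the other pathway genes 24 of 30 were below 0 as well, with 3 at a p under 0.05, among them the core maturation factor Pomp (-0.18, SE 0.09, p = 0.0388) and Zfand5, which binds and activates the 26S proteasome (-0.23, SE 0.08, p = 0.00614).

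The last comparison was whether the genotype difference itself differed between lines. In line 1, 1 member, Psme4, had a p under 0.05 for genotype (3.96% of all genes tested), and in line 3, 5 had one (7.93%). The interaction term tests the difference between the lines, and 1 member passed an unadjusted p of 0.05 for it by edgeR, as did 8.10% of all genes, and 0 had an adjusted p under 0.05 (DESeq2 gave 2 and 0). That was Psmd13, a lid subunit. It had 37.1 to 67.1 CPM in WT and 29.6 to 71.3 CPM in CYFIP1 OE mice of line 1 (medians 45.8 and 41.6). In line 3 it had 31.3 to 59.5 CPM in WT and 45.2 to 125 CPM in CYFIP1 OE mice (medians 36.5 and 48.4), all 8 of which were above the WT mean of the line.

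The log2 interaction of Psmd13 was 0.65 (SE 0.29, edgeR p = 0.0294, adjusted p = 0.571) and 0.42 (SE 0.22, p = 0.0699) without the mouse that stands apart. Psmc1 had an interaction of 0.64 (SE 0.32, p = 0.0520), or 0.26 (SE 0.18, p = 0.146) without that mouse, and in line 3 its genotype difference was 0.73 (SE 0.22, p = 0.00204), or 0.33 (SE 0.12, p = 0.0127) without that mouse. In line 3 without that mouse 2 members, Psmc1 and Psme1, passed the same p for genotype, as did 9.03% of all genes.

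Psme1, a subunit of the PA28 activator, had values of the opposite sign. Its medians were 15.5 and 20.7 CPM in WT and CYFIP1 OE mice of line 1 and 17.6 and 13.2 CPM in those of line 3. The interaction was -0.62 (SE 0.33, edgeR p = 0.0672) in all mice and -0.77 (SE 0.32, p = 0.0204) without the mouse that stands apart. Without it Psmb10 also had a p under 0.05 for the interaction (-0.60, SE 0.26, p = 0.0261), against -0.42 (SE 0.29, p = 0.167) with it. These 2 members stood against 10.4% of all genes tested.

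Levels of striatal markers moved with the same contrast. The 6 tested markers of striatal projection neurons had a median interaction of 1.52 in log2, each with an edgeR p under 0.05, and of 1.66 without the mouse that stands apart. Over the 30 other mice, with sex, line and genotype removed, Pearson's r with the mean of these markers was -0.69 for Psme1 and -0.53 for Psmb10, and 0.54 for Psmd13 and 0.46 for Psmc1. Striatal markers were not the only correlate. Psmb10 had an r of 0.62 with the mean of the BLA principal neuron markers. With microglia markers Psmd13 had 0.66 and Psmc1 had 0.51. For Psme1 the striatal value was the largest in size, the next being 0.38 with astrocyte markers. All points are libraries that differ in depth and in marker levels, so the values are a description. The part of striatal tissue in the interactions was not tested.

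**Figure D3:**
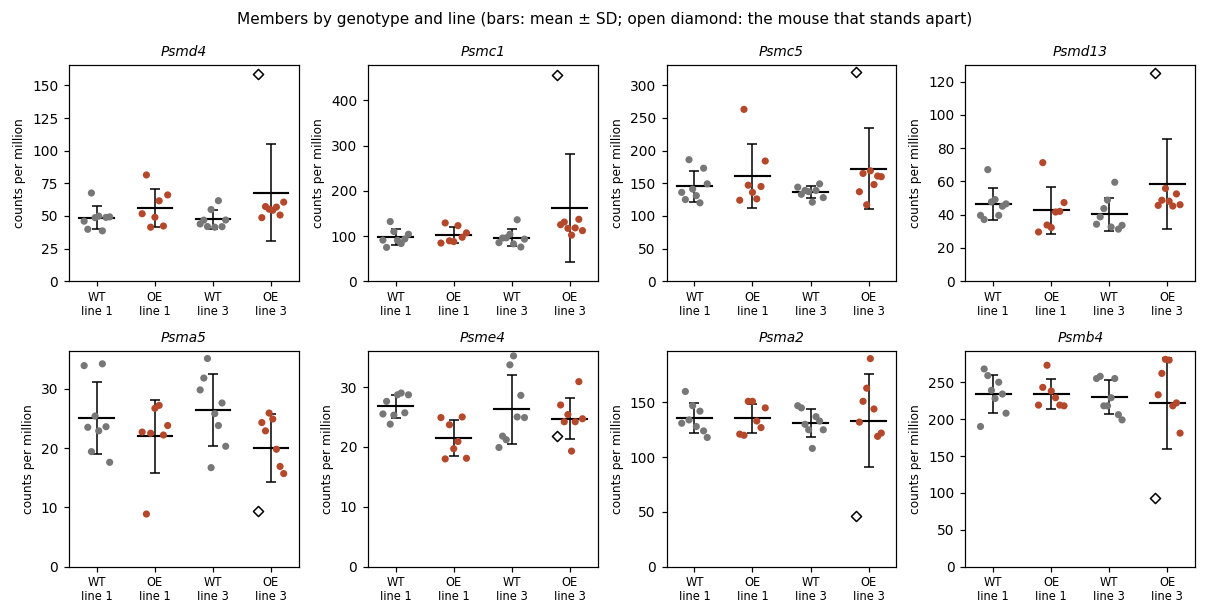
CPM of 8 members in WT and CYFIP1 OE (OE) mice of each line, with points for mice, bars for mean ± SD and an open diamond for the mouse that stands apart. That mouse is far above the other CYFIP1 OE mice of line 3 for Psmd4, Psmc1, Psmc5 and Psmd13 and far below them for Psma2 and Psmb4.

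Subunits of one complex might be thought to vary together between mice. Over the 31 mice, with sex, line and genotype removed from the log2 CPM, the median of Pearson's r was 0.06 over the 120 pairs of core genes, 0.04 over the 136 pairs of regulatory genes and 0.10 over the 272 pairs of a core with a regulatory gene. Over all pairs of genes tested it was 0.00. Without the mouse that stands apart the medians were 0.10, 0.07 and 0.09. Cytosolic ribosomal protein genes, for comparison, had a median r of 0.40 over 80 genes and nuclear oxidative phosphorylation genes one of 0.30 over 89 genes in the same mice, while the 8 genes of the cytosolic chaperonin had 0.10. The order of the 3 kinds of pairs changed with the mice used: in WT mice alone the medians were 0.14 (core), 0.16 (regulatory) and 0.03 (core with regulatory).

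Pairs with a high r were more frequent than among all genes, and among the members most of all within the regulatory particle. An r over 0.5 was found in 7.03% of the 1081 pairs of members and in 2.03% of all pairs of genes, and without the mouse that stands apart in 4.72% and 1.64%. This was not particular to the members. In all mice the share was 15.4% in the regulatory particle and 17.9% in the cytosolic chaperonin. It was 6.44% in the other pathway genes, 36.7% in cytosolic ribosomal protein genes and 30.1% in nuclear oxidative phosphorylation genes. Strongly negative pairs were also found, with an r under -0.5 in 53 pairs of members, or 29 without that mouse. Of the 51 pairs with an r over 0.5 without that mouse, 8 joined core genes (6.67% of such pairs), 17 regulatory genes (12.5%) and 16 a core with a regulatory gene (5.88%). The pairs below were singled out after their values were seen.

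In one direction went a group around Psmc1. Its r with Psmd13 was 0.90 over all mice and 0.86 without the one that stands apart, and 0.92 in WT and 0.72 in CYFIP1 OE mice without it. Psmd4 had an r of 0.73 with Psmc1, 0.74 with Psmd13 and 0.77 with the ATPase gene Psmc3 over the 30 mice. In the other direction went a group around Psmd14, which codes for the deubiquitinating enzyme of the lid. Over the 30 mice Psmd14 had an r of 0.82 with Psma5, 0.65 with Psma1 and 0.64 with Psmd12. The groups were opposed: r was -0.63 between Psmd4 and Psmd14, -0.55 between Psmc1 and Psmd14 and -0.63 between Psmd13 and Psma1. The opposition was weaker in line 3. These pairs, in the same order, had an r of -0.75, -0.73 and -0.75 in line 1 and of -0.41, -0.42 and -0.35 in line 3.

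A further group joined core genes with scaffold or lid genes and overlapped the one around Psmd14. Psma2 had an r of 0.79 with Psmd8, a lid subunit, 0.66 with Psmb3 and 0.65 with Psmb4, and Psmb3 and Psmb4 had an r of 0.75. Psma2 and Psmd8 each had an r of 0.51 with Psmd14 and count among its partners below. The immunoproteasome genes were loosely tied, with an r of 0.57 between Psme1 and Psme2 and of 0.43 between Psmb10 and Psme1. Among the catalytic subunits Psmb5 and Psmb6 had an r of 0.51, and Psmb7 had -0.15 with Psmb5 and -0.37 with Psmb6. These values depended on the mice used. In WT and CYFIP1 OE mice r was 0.24 and 0.76 between Psmb5 and Psmb6, and 0.29 and -0.65 between Psmb6 and Psmb7.

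**Figure D4:**
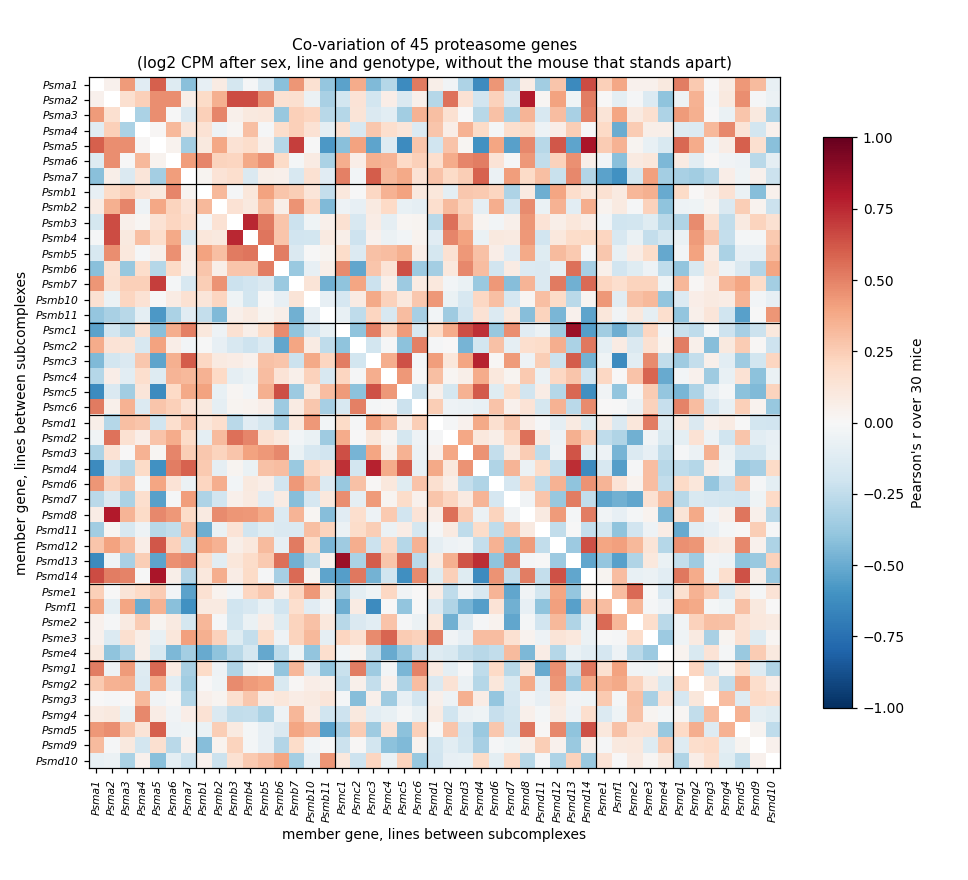
Pearson's r between 45 members over the 30 mice without the one that stands apart, after sex, line and genotype were removed, with lines between subcomplexes and red for positive and blue for negative values. No block along the diagonal is uniformly red, while Psmc1, Psmc3, Psmd4 and Psmd13 are red with each other and blue with Psma1, Psma5 and Psmd14.

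These groups differed in measures that the rule did not use. The GC content of the last 500 bases of the longest transcript had a median of 54.3% (47.6 to 56.0) over Psmc1 and the 5 members with which it had an r over 0.5, and of 42.2% (36.0 to 48.0) over Psmd14 and its 9 partners, against 45.4% over all members. Over all pairs of members the r of the pair and the difference in GC content had a correlation of -0.15. With the mean of 6 microglia markers, over the 30 mice, r ran from 0.33 (Psma7) to 0.66 (Psmd13) over Psmc1 and its partners, and from -0.57 (Psma1) to -0.09 (Psmd12) over Psmd14 and its partners. It was highest for Psmc5 with 0.68, which is in neither group. These markers were all detected in every mouse, the lowest being Tmem119 with 4.4 CPM, and summed to 134 to 234 CPM in WT and 138 to 321 CPM in CYFIP1 OE mice. Microglia were only 1 of the scores computed, and others leaned apart as well. With the mean of 5 neuron markers r ran from -0.29 (Psmd13) to 0.05 (Psmc3) over Psmc1 and its partners. Over Psmd14 and its partners it ran from 0.04 (Psma2) to 0.56 (Psmd5). With the log2 total count of the library it ran from 0.10 (Psmc1) to 0.53 (Psmc3) and from -0.32 (Psma1) to 0.32 (Psma2). The part of GC content, of depth or of cell composition in the co-variation was not tested.

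Of all members Psmb4, Psmd8 and Psmd6 had the highest median r with the other members, 0.18, 0.16 and 0.13, and Psme4, Psmd13 and Psmc5 the lowest, -0.14, -0.12 and -0.11. Without the mouse that stands apart these values were 0.07, 0.09 and 0.11, and -0.19, -0.04 and -0.02, and Psmd12 was then highest with 0.16, while Psme4 stayed lowest. The genes outside the list that followed the mean of the members most closely over the 31 mice were Hint1 with an r of 0.78, Rabac1 with 0.75, Arnt2 and Nme2 with 0.71 and Mrfap1 with 0.70. Without the mouse that stands apart these values were between 0.65 and 0.77.

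That mouse held the highest value of 8 members and the lowest of 13, and the mouse with the next most extreme values held 7 in all. Among all genes tested it was above all other mice for 15.7% and below all for 13.9%, against 17.0% and 27.7% of the members, so that its profile was unusual beyond the proteasome. Its difference from the other mice was uneven within the complex. Against the median of the other 30 mice Psmc1 was at 457 against 99.7 CPM, Psmd4 at 159 against 49.1, Psmd13 at 125 against 45.2 and Psmc5 at 320 against 140 CPM.

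On the other side Psmd14 was at 21.3 against 65.2 CPM, Psma2 at 46.0 against 133 and Psmb4 at 93.2 against 231 CPM, while Psmb5 was at 125 against 123 CPM. The summed level of the ATPases was 1060 CPM, the highest of all mice, and that of the core genes 944 CPM, the lowest. Over the members its log2 difference from the other mice had a correlation of 0.45 with the GC content of the transcript end, against 0.06 over 17372 genes. The same mouse had the highest sums of BLA principal neuron, astrocyte and microglia markers (1520, 562 and 321 CPM) and the lowest sum of immediate early genes (82.8 CPM). Its sums of striatal projection neuron and oligodendrocyte markers were 201 and 1210 CPM. The other mice had 184 to 4190 CPM (median 2070) and 1120 to 8660 CPM (median 3060). The part of these in its proteasome profile was not tested.

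**Figure D5:**
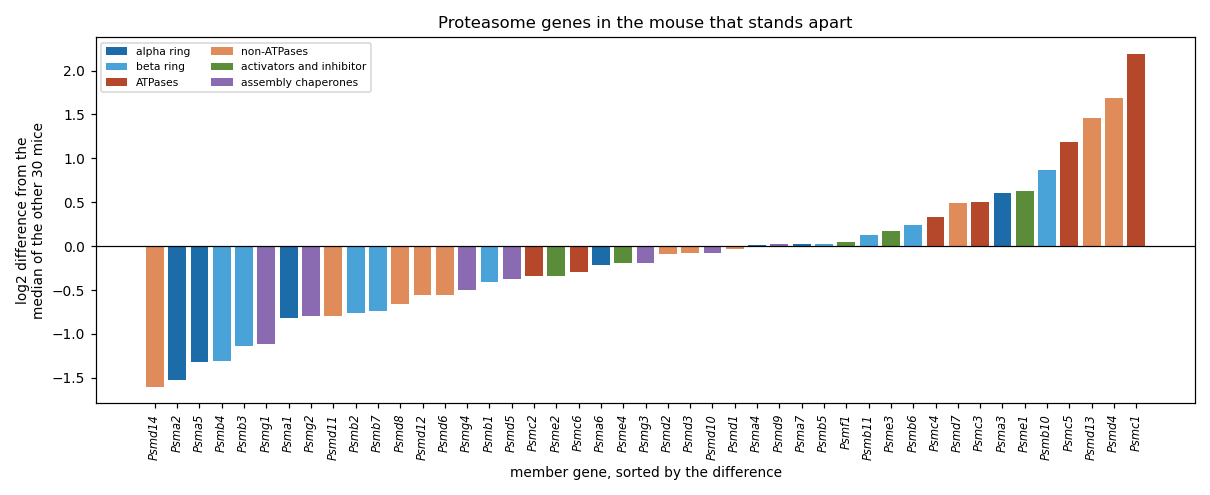
Log2 difference of the mouse that stands apart from the median of the other 30 mice for 45 members, sorted and coloured by subcomplex. The ends are held by Psmd14 (-1.60) and Psma2 (-1.53) on one side and by Psmd4 (1.69) and Psmc1 (2.19) on the other, and both ends hold core or regulatory genes.

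Several members share their place in the genome with other expressed genes. Psmc3, Psmd13, Psme1, Psmb7, Psmd5, Psma3, Psmd9 and Psmc3ip each overlap a tested gene on the opposite strand, Psmd13 with Sirt3 among them, and Psma2, Psmb7, Psmd1, Psmd12 and Psme2b overlap one on the same strand. Whether the counting used strand is not given in the sources used here, so reads of such pairs may be mixed. The 4 annotated pseudogenes of Psmb5, Psmb6 and Psmb7 had at most 6 reads in any mouse.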

How the data were processed

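Per the methods and the submitters' processing notes, QuantSeq 3′ reads were mapped with STAR to GRCm38, checked with Picard and MultiQC and quantified with Salmon (versions not given in the sources used here). The authors deposited estimated counts per gene for each of 31 mice, neither normalized nor filtered. These expected counts were rounded to whole numbers. Genes with at least 10 reads in 7 or more mice were tested with edgeR 4.0.16 (R 4.3.3; TMM, quasi-likelihood test, Benjamini-Hochberg over all genes tested) with sex, line and genotype in the model, and with line by genotype added for the interaction. The study's sequencing principal components rest on alignment statistics not used here, and 5 surrogate variables (sva 3.50.0) replaced them in an alternative. DESeq2 1.42.0 was a further alternative.

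CPM use TMM factors. Correlations used log2 CPM with a prior count of 2. Per-kb levels used the longest annotated transcript. The fits were tested on simulated data. At 5286708 to 8685308 counts per mouse the lowest members rest on few reads (Psme2b has 0 reads in 8 mice), so that counting error is large for them.

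The members and all lists were chosen with earlier results of these data known. Named were the 3 members with the smallest p per comparison, the catalytic and interferon-inducible subunits, the highest and lowest of each subcomplex, the 3 with the highest and lowest median correlation, and the 5 genes most like the members' mean. Alternatives covered normalization, filter, covariates, age, mice and line. Leaving out each mouse, the per-kb scale and BCVs without the mouse that stands apart were added after seeing the data.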

Additional observations from a re-analysis of the deposited data

Results flagged for a closer look

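Groups of 7 or 8 mice of one genotype and line were examined for a mouse far from the rest, with Dixon's test, for 47 members in 4 groups. Of the 188 groups 16 held such a mouse, and chance flags about 1 in 20. The mouse that stands apart accounted for 6 of the 16. It had the highest value among CYFIP1 OE mice of line 3 for Psma3 (137 CPM, the next mouse 98.6), Psmc1 (457, next 137), Psmc5 (320, next 169), Psmd4 (159, next 60.6), Psmd7 (111, next 90.4) and Psmd13 (125, next 55.8). In the same group another mouse had 196 CPM of Psmd2 (next 159).

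In CYFIP1 OE mice of line 1, 1 mouse had the lowest Psma5 (8.88 CPM, next 22.2) and the highest Psmc5 (263, next 184) and Psmd13 (71.3, next 47.3), and another had the highest Psme2 (33.6, next 18.2). In WT mice of line 1, 1 mouse had the highest Psmd4 (67.6, next 49.9) and Psmd13 (67.1, next 49.1), and another the highest Psmg1 (13 CPM, next 6.38). In WT mice of line 3, 1 mouse had the highest Psmc1 (136, next 104) and Psme2b (3.11, next 1.12).

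Psmd13 had an unadjusted p under 0.05 for the interaction of genotype and line (log2 0.65, edgeR p = 0.0294, adjusted p = 0.571). It was 1 of 47 members, where 8.10% of all genes passed the same p, and without the mouse that stands apart the value was 0.42 (p = 0.0699). Leaving out each mouse in turn, 4 of the 31 fits lost the call.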

How the results depend on the processing

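Of 5 members with an unadjusted p under 0.05 for genotype, the count was 2 with 5 surrogate variables, with age, or with name group as a term (mice of the 5 name groups that hold both genotypes), 3 without the mice aged 77 days or without the mouse that stands apart, and 1 in line 1 alone. The count of 1 for line was 0 without the filter on low counts, with age, without the mice aged 77 days, in WT mice alone and in CYFIP1 OE mice alone. The count of 1 for sex was 2 without the mice aged 77 days. The count of 1 for the interaction was 2 by DESeq2, without the filter, with 5 surrogate variables, with age and without the mouse that stands apart. Without that mouse 3.76% of all genes passed for genotype and 10.4% for the interaction, against 4.30% and 8.10% in all mice. For the other settings the share of all genes is not given, so a changed count is not a result about the members. The median correlation of core genes was 0.14 in WT mice alone and -0.02 in line 1 alone, that of regulatory genes 0.10 with 5 surrogate variables removed and 0.16 in WT mice alone, and that of core with regulatory genes 0.03 in WT mice alone and 0.02 in line 1 alone. The line difference of Psmc1 was -0.02 in WT mice alone. The cause of these changes was not tested. Of the values of single members under the other settings, apart from leaving out single mice by turns, 86 kept their direction and side of the threshold, 28 were no longer past it, 4 were newly past it and 1 reversed its direction.

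Leaving out each mouse in turn, added after seeing the data, gave 2 to 6 members for genotype, 0 to 2 for line, 1 to 3 for sex and 0 to 3 for the interaction. Except for the mouse that stands apart, the share of all genes in these fits is not given. The counts thus set the members against no background. For genotype the count was 2 without CYFIP1 OE replicate 4 and 3 without CYFIP1 OE replicates 1 or 9 or WT replicates 9 or 13. For the interaction it was 0 without CYFIP1 OE replicates 2 or 5 or WT replicate 6 and 3 without CYFIP1 OE replicates 3, 4, 10 or 11 or WT replicate 14. For line it was 0 without any of 16 mice and 2 without CYFIP1 OE replicate 15 or WT replicate 7. For sex it was 3 without WT replicate 4 and 2 without WT replicates 1, 8, 9, 13 or 15. The median genotype difference ranged from -0.02 to 0.02 and the median line difference from -0.01 to 0.02, and the median correlations from 0.04 to 0.10 (core), 0.02 to 0.07 (regulatory) and 0.08 to 0.11 (core with regulatory).

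No paired analysis was possible because the replicate numbers only follow sample order. Name groups with both genotypes could be blocked, with the count of 2 given above. With 15 and 16 mice and SEs of about 0.11, small differences were not detectable, and all p-values for members quoted below 0.05 were unadjusted.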
